A study of Mus musculus with 33 samples.

Results

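Gpr37 and Gpr37l1 are paralogous genes of G protein-coupled receptors that belong to the glia of the brain, and Psap encodes prosaposin, the protein reported as a ligand of both. They were found as 3 of the 18853 genes in the count tables by their symbols. They were chosen by measured levels, picked because Gpr37 was higher and Gpr37l1 lower in mature oligodendrocytes than in oligodendrocyte precursors, so that contrast is given as a description with no test. The genes lie apart in mm10: Gpr37 (ENSMUSG00000039904.9) on the minus strand at chr6:25665878-25690729, Gpr37l1 (ENSMUSG00000026424.8) on the minus strand at chr1:135160234-135167681, and Psap (ENSMUSG00000004207.14) on the plus strand at chr10:60277627-60302597. Each is annotated in GENCODE as protein coding, and 0 other annotated genes overlap any of them.

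GPR37 is known as a substrate of parkin that can misfold in the endoplasmic reticulum, and in the brain it is best known from myelinating oligodendrocytes, where it restrains myelination. GPR37L1 is known from astrocytes, and its extracellular end is cut by metalloproteases. Prosaposin is split in lysosomes into saposins, the helper proteins of the enzymes that degrade sphingolipids, and it is also secreted. Whether it is the natural ligand of the receptors has been debated.

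The study sequenced single cells of the hippocampal niche of C57BL/6 mice, labelled wild-type, with neurons depleted, by sorting live cells that lacked GluR1 and Cd24 antibody signal into plates. The niche gave 31 libraries, numbered as experiments 1 to 5. Mice over 12 months of age (called old here) gave 1 more library. A further 1 held GFP-positive cells of NestinGFP mice, in which the Nestin promoter drives the reporter. The labels give no age for the niche and Nestin-GFP mice and no number of mice per experiment. Each experiment was a replicate, and the old and Nestin-GFP libraries were single samples with no replicate check.

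After wells with fewer than 1000 transcripts were left out, 1737 cells remained, 141 to 434 in a niche experiment, 138 in the old library and 315 in the Nestin-GFP library. Transcripts in these cells summed to between 450715 and 2557594 per niche experiment, and the median per cell ran from 1942 in experiment 5 to 12312 in experiment 4. Cells were named from marker genes after clustering without Gpr37, Gpr37l1 and Psap. Plates reuse the same well barcodes, so 283 of 364 well numbers occurred in more than 1 library, but 0 cells had the same counts as another cell. All 13 astrocyte markers were detected in the astrocyte-like cells of each of the 5 experiments, and 11 or 12 of 12 precursor markers in the precursor-like cells. All 14 mature oligodendrocyte markers were detected in mature oligodendrocyte-like cells in experiments 1, 3 and 5, which alone held at least 5 such cells. These markers also named the clusters, and detection here means at least 1 count in a class sum, so it does not separate the classes. Fibroblast-like cells also held all 13 astrocyte markers, and microglia-like and precursor-like cells up to 13 of 14 mature markers.

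Levels are counts per 1000000 (CPM): the counts of a class were summed within an experiment, in the set of counts that had not been used for clustering. Gpr37 was highest in mature oligodendrocyte-like cells. There it stood at 1776 CPM in experiment 1, 1074 in experiment 3 and 2353 in experiment 5 (mean 1734 ± 641, SD, n = 3), from 49, 10 and 5 cells. In astrocyte-like cells it stood at 207, 166, 241, 187 and 127 CPM in experiments 1 to 5 (mean 186 ± 42.8, SD, n = 5). The lowest mature value was above the highest astrocyte-like one. Neural stem cell-like cells, which reached 5 cells only in experiment 2, had 62.6 CPM from 5 counts. All 5 fell in this set, and with all counts the level was 31.3 CPM, near the mean of 31.7 CPM in blood and lymphoid cells. Neuroblast-like cells had 0 to 13.2 CPM. In oligodendrocyte precursor-like cells Gpr37 had 3.37 CPM in experiment 1, resting on 1 count, and 0 in the other experiments, where 3 counts over all 5 experiments would have been 3.78 CPM. Microglia-like cells, a class that should lack the gene, had 4.31 CPM in experiment 1 from 1 count and 0 elsewhere. The precursor mean of 0.675 CPM moved to 11.2 and 9.57 CPM with other random seeds and to 11.4 and 13.03 CPM with at least 500 or 2000 transcripts per cell.

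Gpr37l1 followed another order. It was highest in astrocyte-like cells, at 4400, 3624, 2978, 3320 and 3381 CPM in experiments 1 to 5 (mean 3541 ± 533, SD, n = 5). Precursor-like cells had 1734, 1559, 1177, 1156 and 1489 CPM in the same order (mean 1423 ± 251, SD, n = 5). All 5 astrocyte-like values were above all 5 precursor-like values. Neural stem cell-like cells of experiment 2 had 1215 CPM, below the precursor-like value of 1559 there. Mature oligodendrocyte-like cells had 54.8, 41.3 and 0 CPM in experiments 1, 3 and 5. Microglia-like cells had 81.9, 87.6, 29.3, 48.2 and 0 CPM, a range that holds the 3 mature values.

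Psap was present in every glial class at levels that differed far less. Microglia-like cells had 1587, 1564, 1435, 2939 and 1274 CPM in experiments 1 to 5, the 2939 coming from 7 cells. Astrocyte-like cells had 1240, 1652, 1276, 1264 and 1127 CPM (mean 1312 ± 199, SD, n = 5), within the microglia-like range except for experiments 1, 4 and 5, which lay just below it. Precursor-like cells had 904, 751, 895, 889 and 670 CPM, all below every astrocyte-like value. Mature oligodendrocyte-like cells had 696, 888 and 420 CPM in experiments 1, 3 and 5, a range that overlaps with that of the precursors. Neuroblast-like cells had the lowest mean of these classes, 436 ± 155 CPM (SD, n = 5), with values that overlapped the mature ones.

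**Figure D1:**
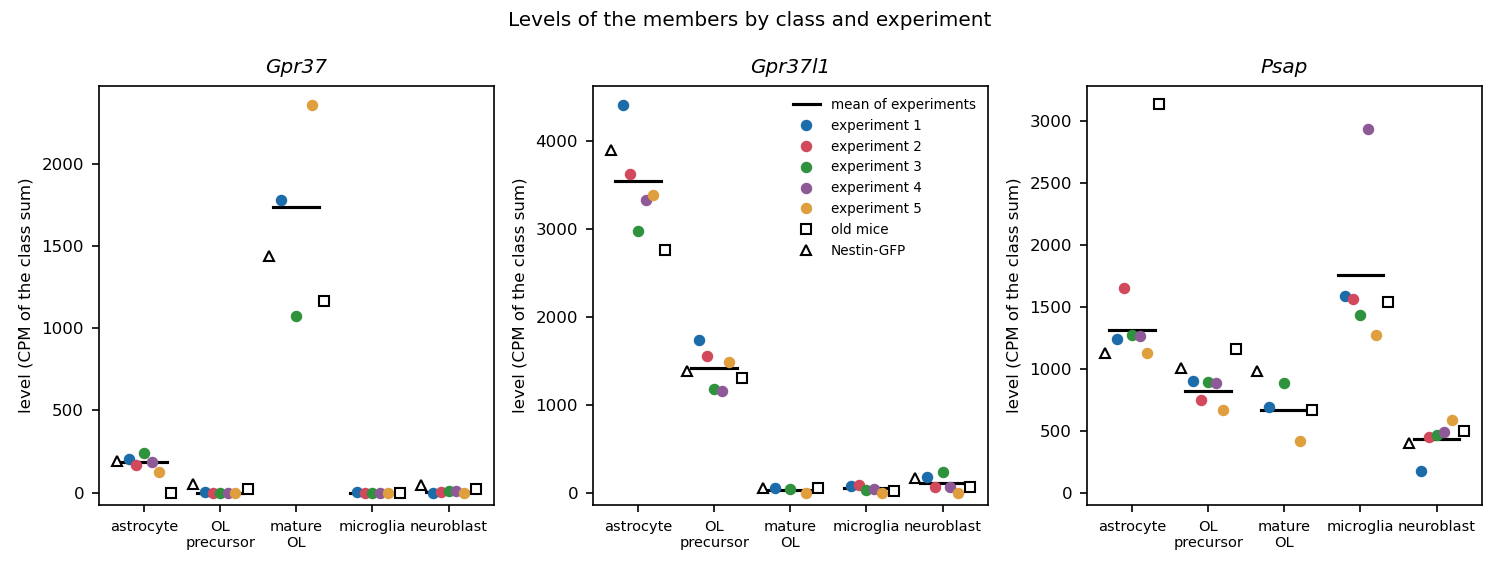
Level of Gpr37, Gpr37l1 and Psap (CPM of the class sum, linear axes) in 5 classes, where OL stands for oligodendrocyte; filled points are niche experiments, open symbols the old and Nestin-GFP libraries, bars the mean of the experiments. Gpr37 lies at 1074 to 2353 CPM in mature OL and at 0 to 3.37 CPM in niche OL precursors, while Gpr37l1 lies at 1156 to 1734 CPM in niche precursors and at 0 to 58.4 CPM in mature OL of all libraries.

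The values that chose the genes were those of the precursor-like and mature oligodendrocyte-like cells. In experiments 1, 3 and 5, which held both classes, 55.5% of the 893 genes tested passed an adjusted p of 0.05 between them (edgeR quasi-likelihood test), 54.6% had values that did not overlap, and 372 to 924 genes passed when 1 experiment was left out, against 496 with all 3. Because the clustering did not use the 3 genes, all their counts could also be pooled within the classes. Gpr37 then had 558 counts in mature cells against 4 in precursors of the same experiments, a ratio of 279 per transcript total with an exact 95% counting interval of 108 to 1028. For Gpr37l1 the counts were 13 in mature cells and 1252 in precursors, so precursors were 48.1 times higher (28.0 to 90.6). These intervals cover counting error only.

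The stage between them was thinly sampled. Committed oligodendrocyte precursor-like cells, which have begun to leave the precursor state, reached 5 cells only in experiment 1. In those 8 cells Gpr37l1 stood at 1751 CPM from 43 counts, close to the 1734 CPM of precursor-like cells of that experiment. Gpr37 stood at 40.7 CPM from 1 count, whereas the mature markers as a group already summed to 29189 CPM there, against 945 CPM in precursors and 115612 CPM in mature cells. The precursor-like class may also hold cells of or near this stage. In experiment 2, 68 of its 82 cells were in a cluster led by Gpr17, a marker of the committed stage. Committed markers summed to 3347 to 8803 CPM in precursor-like cells of the 5 experiments, and to 19500 CPM in the 8 committed cells. With 8 cells and no second experiment, no comparison was made.

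The share of Gpr37 among the counts of both paralogs put these classes on 1 scale, since each count stands for 1 transcript tagged at its 3' end and does not grow with gene length. In mature oligodendrocyte-like cells Gpr37 made up 97.01%, 96.3% and 100% of paralog counts in experiments 1, 3 and 5, with 95.5% in old and 96.1% in Nestin-GFP mice. In astrocyte-like cells it made up 4.48%, 4.39%, 7.48%, 5.33% and 3.61% in experiments 1 to 5, and in precursor-like cells 0.194% in experiment 1 and 0% in the others. The mature shares did not overlap with the astrocyte-like or precursor-like ones, and in each of the 5 experiments the astrocyte-like share was above the precursor-like share. Neural stem cell-like cells of experiment 2, the only experiment with at least 5 of them, had 4.90% (exact 95% interval 1.61% to 11.1%), which includes the astrocyte-like value of 4.39% there. All 5 of their Gpr37 counts fell in this set. With all counts, Gpr37 was 4.70 times higher in astrocyte-like cells there (1.75 to 15.8), and Gpr37l1 2.92 times (2.46 to 3.46).

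**Figure D2:**
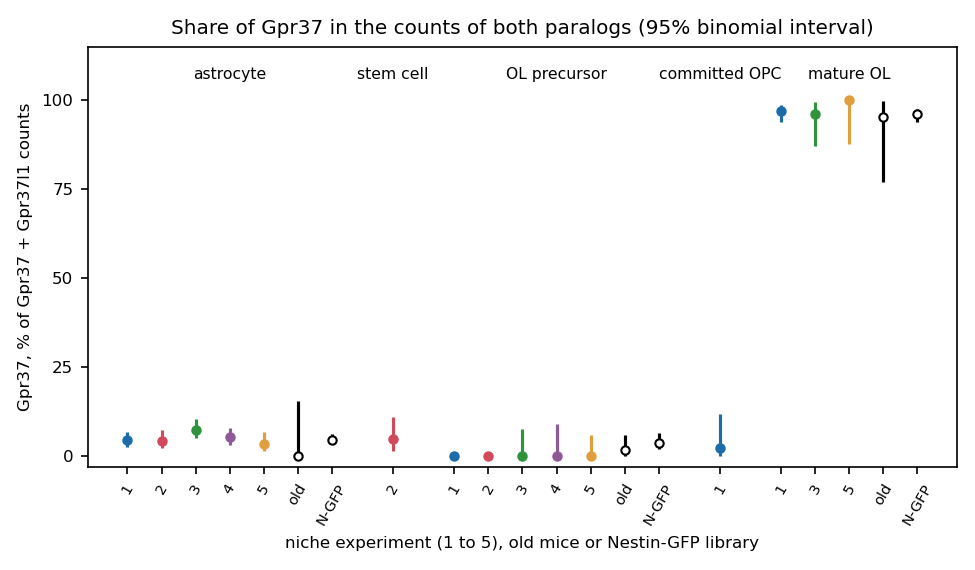
Gpr37 as a percentage of the counts of Gpr37 and Gpr37l1 together (linear axis) for 5 classes (astrocyte, stem cell, OL precursor, committed OPC, mature OL) and each library, with exact 95% binomial intervals; filled points are niche experiments and open points the old and Nestin-GFP (N-GFP) libraries. Mature OL sit at 95.5% to 100%, and the other 4 classes plotted at 0% to 7.48%.

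Astrocyte-like cells were set against the other classes with the experiment as a block. The precursor and mature values that chose the paralogs enter these comparisons on 1 side, so for the paralogs the differences from those classes are a description, with no p-value. Against precursor-like cells all 3 genes were higher in astrocyte-like cells, in a comparison in which 21.9% of the 1963 genes tested were called higher, 19.3% lower and 41.1% in either direction. The values of the classes did not overlap for any of the 3, which held for 27.6% of genes. Gpr37l1 was higher by 1.47 on the log2 scale (SE 0.17, edgeR) in 5 of 5 experiments. For Gpr37 the fitted change depends on how a near-zero count is treated, so the pooled counts are given: 180 in astrocyte-like cells against 7 in precursor-like cells, a ratio of 42.4 (95% counting interval 20.2 to 107). Without experiment 1, Gpr37 did not pass the filter on low counts in this comparison. Psap was higher by 0.83 (SE 0.19, edgeR adjusted p = 0.000723), also in 5 of 5 experiments. In the edgeR fit the median of all genes lay at -0.08, and at -0.46 without a scaling factor, where 309 genes were higher and 744 lower instead of 429 and 378. There Gpr37l1 was higher by 1.09, and Psap by 0.45 (edgeR adjusted p = 0.0470).

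Against mature oligodendrocyte-like cells the paralogs moved apart. Gpr37 was lower in astrocyte-like cells by a log2 difference of -2.96 (SE 0.37, edgeR), and Gpr37l1 was higher by 6.39 (SE 0.51), each in 3 of 3 experiments. Of the 1829 genes tested there, 25.9% were higher, 23.3% were lower and 50.9% had values that did not overlap, and the 900 genes called fell to 576 without experiment 1. In pooled counts Gpr37 was 7.87 times higher in mature cells (558 counts against 110, 95% counting interval 6.41 to 9.75). Psap was higher in astrocyte-like cells by 0.88 (SE 0.35, edgeR adjusted p = 0.0257) in 3 of 3 experiments. That call was lost when any 1 of the 3 experiments was left out (edgeR adjusted p = 0.0576, 0.0596 and 0.0960 without experiments 1, 3 and 5) and without the block (0.0812).

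Against microglia-like cells, the class taken as background, both receptor genes were higher in astrocyte-like cells, and Psap did not pass the test. Gpr37l1 was higher in astrocyte-like cells by 6.18 on the log2 scale (SE 0.44, edgeR) and in precursor-like cells by 4.91 (SE 0.34), each in 5 of 5 experiments. Gpr37 in astrocyte-like cells had 180 counts against 3 in microglia-like cells, a ratio of 65.6 (22.1 to 321). Both genes passed the filter on low counts there only through the class where they were high. These differences are therefore a description, with no p-value. In precursor-like cells Gpr37 did not pass the filter on low counts against microglia-like cells. The pooled ratio of 1.55 had an interval of 0.353 to 9.28, so a difference from background was not detectable at this depth. Psap was lower in precursor-like than in microglia-like cells by a log2 difference of -0.83 (SE 0.26, edgeR adjusted p = 0.00452), and in astrocyte-like cells it differed by -0.17 (SE 0.31, adjusted p = 0.651), with overlapping values. Of 1810 genes tested for astrocyte-like cells, 67.3% were called, 35.2% as higher and 32.1% as lower, and 52.3% did not overlap. Of 1260 tested for precursor-like cells, 73.7% were called, 42.3% as higher and 31.4% as lower, and 51% did not overlap, so a call by itself sets no gene apart here. The 929 genes called between precursor-like and microglia-like cells ranged from 583 to 1610 when 1 experiment was left out.

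Single cells were compared after each was thinned to 1000 transcripts. Gpr37l1 was detected in 93.8%, 86.8%, 84.3%, 93.3% and 86.5% of astrocyte-like cells in experiments 1 to 5 (mean 89.0% ± 4.33, SD, n = 5). In precursor-like cells it was detected in 78.1%, 87.8%, 61.5%, 33.3% and 84.6%, where the low value of experiment 4 rests on 6 cells. Its share in microglia-like cells was 4.76% ± 5.50, and that in mature oligodendrocyte-like cells 1.36% ± 2.36 (SD, n = 5 and n = 3), at or below the background. Without thinning, 98.4% of the 255 niche precursor-like cells held a Gpr37l1 transcript, against 12.6% of the 285 microglia-like cells, at median depths of 5461 and 3117 transcripts.

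Gpr37 was detected in 81.6% of mature oligodendrocyte-like cells of experiment 1, 6 of 10 of experiment 3 and 4 of 5 of experiment 5 after thinning, and in all 66 niche cells of the class without it. In astrocyte-like cells the thinned shares were 20.99%, 11.3%, 21.6%, 6.67% and 7.69% in experiments 1 to 5 (mean 13.6% ± 7.18, SD, n = 5), each above the microglia-like share of the same experiment, which was 1.49% in experiment 1 and 0% in the others. The share of experiment 4 rests on 1 of 15 cells, against 0 of 7 microglia-like cells, and that of experiment 5 on 4 of 52. Without thinning and over all libraries, the highest number of Gpr37 transcripts in 1 cell was 38 among mature oligodendrocyte-like cells. It was 11 among astrocyte-like and 3 among precursor-like cells, and depth was not matched for these 3 values. After thinning, precursor-like cells of the niche had a Gpr37 transcript in 2 of 255 cells, which is 0.784% (exact 95% interval 0.095% to 2.80%), and microglia-like cells in 2 of 285.

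Co-detection was counted over the same thinned cells. Of the 252 niche astrocyte-like cells, 37 held both, 2 held Gpr37 alone, 187 held Gpr37l1 alone and 26 held neither after thinning. The share with both was 12.9% ± 7.12 over experiments (SD, n = 5). Gpr37 was seen in 16.5% of the astrocyte-like cells with Gpr37l1 and in 7.14% of the 28 without it, a description over cells that share libraries. The order was the other way in experiment 5 (6.67% against 14.3%) and in the Nestin-GFP library (16.1% against 57.1%), with few cells lacking Gpr37l1. Of the 66 mature oligodendrocyte-like cells, 2 held both and 50 held Gpr37 alone, and of the 255 precursor-like cells 2 held both and 202 held Gpr37l1 alone. Without thinning, 88 of 252 astrocyte-like cells held both, and these had a median of 3997 transcripts against 2275 in the class. In experiment 4, with a median of 15067 transcripts in these cells, 12 of 15 held both, and in the Nestin-GFP library 56 of 94.

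**Figure D3:**
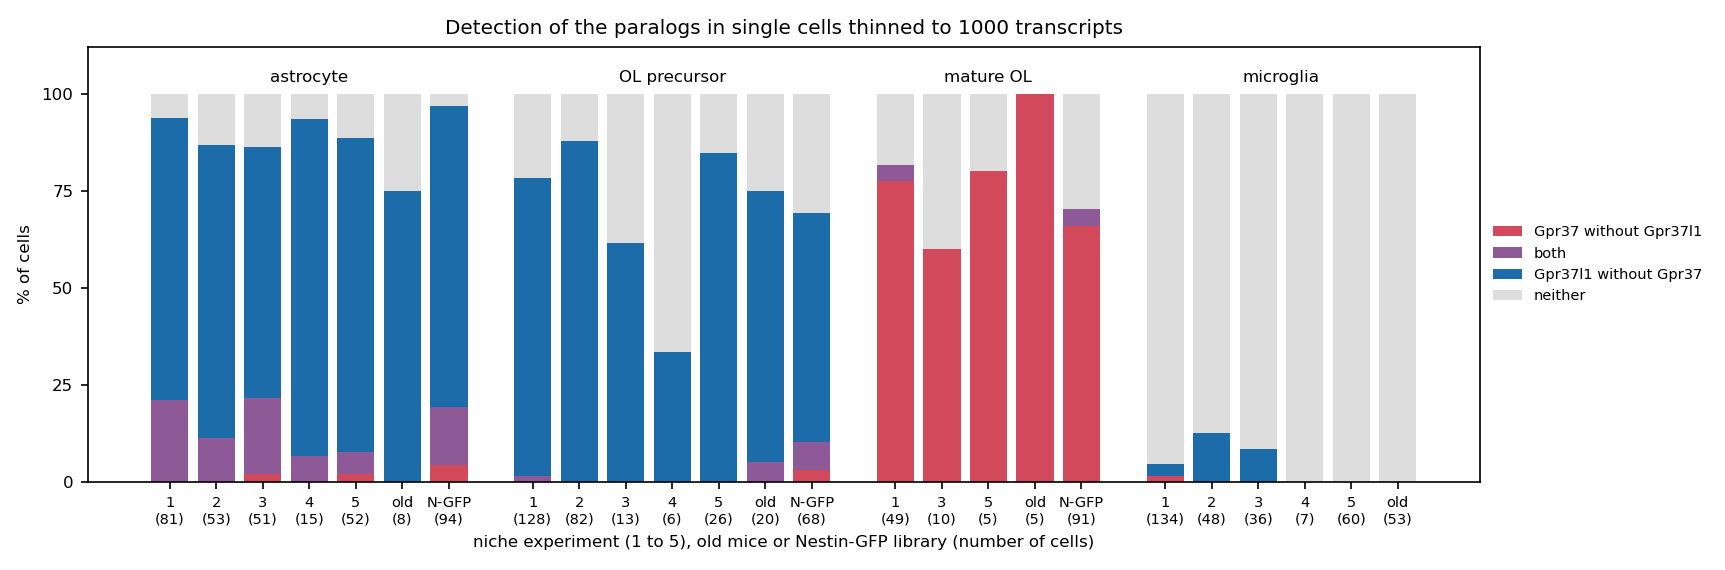
Share of cells (%, bars from 0) with Gpr37 only, both paralogs, Gpr37l1 only or neither, after thinning each cell to 1000 transcripts, by class and library; numbers in brackets are cells. Cells with both make up 12.9% on average in astrocyte-like cells of the niche experiments, and Gpr37l1 is at 0% to 4.08% of mature OL there.

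Gpr37 was also set against the summed counts of 14 mature oligodendrocyte markers in each class. In mature oligodendrocyte-like cells there were 15.4, 10.1 and 24.5 Gpr37 counts per 1000 marker counts in experiments 1, 3 and 5. Astrocyte-like cells had 392, 342, 208, 636 and 243 per 1000 in experiments 1 to 5, all above the highest mature value. The marker sum in astrocyte-like cells was 294 to 1156 CPM with 5 to 11 of the 14 markers detected, against 96067 to 115612 CPM in mature cells. Mog, Mag, Mobp, Cldn11, Ermn, Opalin, Mal, Ugt8a, Aspa and Apod were each at 0 in astrocyte-like cells of at least 1 experiment. Precursor-like cells had a marker sum of 571 to 1749 CPM and 0 to 3.57 Gpr37 counts per 1000 marker counts. Other niche classes with few Gpr37 counts also reached ratios above the mature ones, with 143 in stem cell-like cells (5 counts), up to 69.8 in neuroblast-like cells (6 counts), up to 90.9 in proliferating cells (1 count) and up to 143 in blood and lymphoid cells (1 count). The part of mature transcripts in these levels was not tested.

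**Figure D4:**
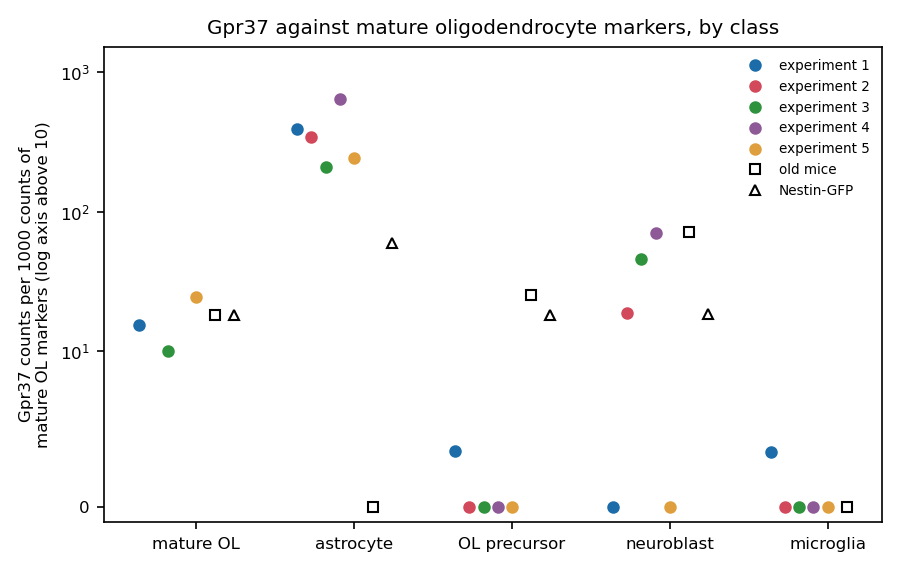
Gpr37 counts per 1000 counts of 14 mature OL markers (log axis above 10, linear below) by class; filled points are niche experiments and open symbols the old and Nestin-GFP libraries. Niche astrocyte-like cells sit at 208 to 636, mature OL at 10.1 to 24.5, and the Nestin-GFP precursors and neuroblasts at the mature value of their own library.

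In the Nestin-GFP library Gpr37 stood at 1438 CPM in mature oligodendrocyte-like, 191 in astrocyte-like and 55.2 in precursor-like cells (exact 95% Poisson interval 29.4 to 94.3), the last above all 5 niche experiments. Neuroblast-like cells had 49.9 CPM (20.1 to 102.8), also above the niche, and endothelial-like cells 241 CPM from 4 counts (65.7 to 617). The precursor-like class lay in different clusters: 63 of 68 Nestin-GFP cells were in a cluster led by Vcan and Pdgfra, 120 of 128 cells of experiment 1 in one led by Lhfpl3 and Pdgfra, and 68 of 82 of experiment 2 in one led by Gpr17. In experiment 3, 12 of 13 were in a small cluster with 0 precursor markers among its top 10 genes. Other classes of experiment 3 were alike. There 43 of 51 astrocyte-like, 27 of 36 microglia-like and 27 of 29 neuroblast-like cells were in clusters with 0 markers of their own class among the top 10 genes. In pooled counts of the Nestin-GFP library the mature level was 22.1 times the precursor level (15.5 to 32.7). Mature markers were also higher in those precursors than in the niche, at 3021 CPM with all 14 detected, and stood at 3205 CPM in the astrocyte-like cells of that library. Gpr37 stood at 18.3 counts per 1000 marker counts in them, at 18.4 in neuroblast-like cells and at 18.3 in mature cells of that library, against 59.6 in its astrocyte-like and 45.5 in its endothelial-like cells. The part of mature transcripts in these levels was not tested.

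Gpr37l1 in the Nestin-GFP library was 3897 CPM in astrocyte-like (3649 to 4157), 1379 in precursor-like (1233 to 1537) and 58.4 in mature cells (35.7 to 90.3), each inside or next to the niche range. Psap differed less there than in the niche, at 1125, 1010 and 985 CPM in the same order. With all counts, astrocyte-like Psap was 1.24 times the precursor level (1.09 to 1.40), against 1.65 times in the niche. It was 1.26 times the mature level (1.13 to 1.42), against 1.69 times in the niche. In the old library Gpr37l1 was 2760 CPM in 8 astrocyte-like cells (1729 to 4178) and 1300 in 20 precursor-like cells (1071 to 1563), and Gpr37 was 1167 CPM in 5 mature cells (722 to 1784). The old astrocyte-like cells had 0 Gpr37 counts in the set not used for clustering, which allows up to 463 CPM, and 1 count in all. Old precursor-like cells had 2 Gpr37 counts, with a 95% interval of 2.79 to 83.1 CPM. The old astrocyte-like Psap level of 3136 CPM (2029 to 4629, 25 counts) was above the 5 niche experiments. Age and library cannot be told apart, since there was 1 old library and the ages of the niche mice are not given.

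Cells with a paralog and Psap transcript were counted to see receptor and ligand gene side by side. Of 226 niche astrocyte-like cells with a transcript of either receptor after thinning, 171 also held Psap (75.7%), against 61.5% of the 26 others. In precursor-like cells 122 of 204 receptor cells held Psap (59.8%), against 56.9% of the others, and in mature cells 25 of 52 (48.1%), against 57.1%. Psap was thus found in many cells of each class whether or not a receptor transcript was seen.

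Genes with the pattern most like each paralog were ranked by Pearson correlation of log2(CPM + 10) over 34 class sums, which share libraries and depth, among 5012 genes with a mean of at least 50 CPM. Nearest to Gpr37 were Efhd1 (r = 0.90), Fgfr2 (0.83), Car2 (0.83), Clmn (0.78), Csrp1 (0.78) and Aspa (0.77). Efhd1 had 518 CPM in mature, 60.3 in astrocyte-like and 0 in precursor-like cells, the same order as Gpr37. Fgfr2, a fibroblast growth factor receptor, had 537, 184 and 7.51 CPM, and Car2, carbonic anhydrase 2, had 5828, 794 and 7.22. Aspa, which degrades N-acetylaspartate in oligodendrocytes, is one of the markers that named the mature class.

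Nearest to Gpr37l1 were Bcan (0.93), Ntrk2 (0.90), Cyp2j9 (0.89), Tril (0.88), Arxes2 (0.88) and Fabp7 (0.88). Bcan, which encodes the matrix proteoglycan brevican, had 2487 CPM in astrocyte-like, 1792 in precursor-like and 28.7 in mature cells. Ntrk2, a neurotrophin receptor gene, had 1443, 715 and 21.6 CPM. Fabp7, a fatty acid-binding protein of radial and other glia, had 703 and 719 CPM in astrocyte-like and precursor-like cells, so it lacked the gap that Gpr37l1 showed between these classes. Cyp2j9 (196 and 224 CPM) and Arxes2 (224 and 266 CPM) lacked it too, whereas Tril (723 and 412 CPM) had the order of Gpr37l1.

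Genes around the receptors were read from 5 lists. Over all genes tested, 21.9% were higher and 19.3% lower in astrocyte-like than in precursor-like cells, 25.9% and 23.3% against mature cells, and 35.2% and 32.1% against microglia-like cells, and 42.3% were higher and 31.4% lower in precursor-like than in microglia-like cells. Of 20 saposin enzymes and prosaposin carriers, 10 were tested between astrocyte-like and precursor-like cells, 5 were higher and 2 lower in astrocyte-like cells, with a median log2 difference of 0.46 against -0.08 over all genes. Sort1, sortilin, which carries prosaposin to lysosomes, was higher at 211 ± 61.7 against 15.2 ± 13.9 CPM (SD, n = 5; log2 difference 3.38). Sort1 passed the filter on low counts there only through astrocyte-like cells, so its difference is a description, with no p-value. Lrp1, a receptor that takes up prosaposin, was lower at 332 ± 40.6 against 1285 ± 515 CPM (-1.72, edgeR adjusted p = 1.48e-07). Against mature cells 4 of 10 tested were higher and 1 lower, with a median of 0.99 against 0.09. There both carriers turned: Lrp1 was higher, at 306 ± 25.4 against 38.4 ± 42.5 CPM (3.46), and Sort1 lower, at 228 ± 73.2 against 502 ± 70.7 CPM (-1.23, edgeR adjusted p = 0.00285). Lrp1 passed the filter in that comparison only through astrocyte-like cells, so its difference is a description, with no p-value.

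Of the endothelin and bombesin type receptors and ligands, the closest relatives of the paralogs, 7 of 8 listed genes were in the files and 1, Ednrb, was tested. Ednrb, the endothelin B receptor, stood at 556 ± 127 CPM in astrocyte-like cells and at 0 in mature cells of all 3 experiments, at least 34.9-fold higher against a floor of 3 counts over the group. It did not pass the test between astrocyte-like and precursor-like cells (log2 difference -0.24).

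Among 24 genes of inhibitory G protein signalling, the route through which the receptors are reported to act, 9 were tested between astrocyte-like and precursor-like cells, with 2 higher and 1 lower (median 0.45 against -0.08). Gnao1, an inhibitory alpha subunit, was higher at 2158 ± 259 against 359 ± 105 CPM (log2 difference 2.77, edgeR adjusted p = 4.97e-12). Rgs20, which speeds the shut-off of such subunits, was higher by 2.90 and Prkar1a, a regulatory subunit of protein kinase A, lower by a difference of -0.64. Against mature cells 3 of 10 were higher and 2 lower (median 0.48 against 0.09), among them Gnao1 by 1.81 and Rgs20 by 5.24. Rgs3 and the kinase gene Mapk3 were lower in astrocyte-like cells there, with differences of -2.24 and -2.14. Against microglia-like cells 3 of 11 were higher and 3 lower in astrocyte-like cells (median 0.16 against 0.13), and 4 of 9 were higher and 2 lower in precursor-like cells (0.09 against 0.33).

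Of 14 reported partners and processing proteases, 6 were tested between astrocyte-like and precursor-like cells, with 2 higher and 2 lower (median -0.47 against -0.08). The 2 higher were the glutamate transporters Slc1a3 and Slc1a2, which are also markers that named the astrocyte-like class. The 2 lower were genes of protein folding and disposal in the endoplasmic reticulum, Sel1l (log2 difference -1.05, edgeR adjusted p = 0.00198) and Hspa5 (-0.86, adjusted p = 0.00853). Against mature cells 2 of 5 were higher, again the transporters, and 1 lower, the protease gene Adam10 at 37.4 ± 27.3 against 203 ± 116 CPM (-2.16). Adam10 passed the filter on low counts only through mature cells, so its difference is a description, with no p-value. Against microglia-like cells 2 of 7 were higher and 4 lower in astrocyte-like cells (median -1.07 against 0.13), and 2 of 6 higher and 3 lower in precursor-like cells (-0.31 against 0.33).

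Of 32 other glial G protein-coupled receptors, 8 were tested between astrocyte-like and precursor-like cells, with 5 higher and 2 lower (median 1.01 against -0.08). Grm3, S1pr1 and Ntsr2, receptors for glutamate, sphingosine 1-phosphate and neurotensin, were higher by 5.53, 5.10 and 4.93. Grm3 had 414 CPM in astrocyte-like and 9.88 in precursor-like cells, so the size of its fitted change depends on how near-zero counts are treated. Gpr17, a marker of the committed stage, and the adenosine receptor gene Adora1 were lower, with differences of -7.12 and -1.74. Against mature cells 7 of 10 were higher and 2 lower (median 1.91 against 0.09), and the 2 lower were Lpar1, at 557 ± 132 CPM in mature against 16.1 ± 27.8 in astrocyte-like cells, and Adora1. Against microglia-like cells 5 of 8 were higher and 2 lower in astrocyte-like cells (median 3.36 against 0.13), and 2 of 5 higher and 3 lower in precursor-like cells (-0.75 against 0.33).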

How the data were processed

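Single cells were sorted into plates and sequenced from the 3' end with unique molecular identifiers (SORT-seq), per the labels' protocols. The authors deposited estimated counts per gene and well. The submitters' processing notes name BWA 0.6.2-r126 and the build mm10. From the values, these counts had been corrected for saturation of 256 or 4096 identifiers: 99.33% to 100.0% of values gave whole identifiers within 0.05. Experiments 1, 3 and 4 had 96 wells per library and 256 identifiers. Experiment 5 and the old and Nestin-GFP libraries had 384 wells and 4096, and experiment 2 held both kinds. Experiment 2 was resequenced, per the labels. Counts were rounded for the tests, and spike-in and mitochondrial rows and wells under 1000 transcripts were left out.

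Counts were divided at random, 50% to each set. Cells were clustered on 1 set without Gpr37, Gpr37l1 and Psap (2000 variable genes, 30 components, 15 neighbours, leidenalg 0.10.2, scikit-learn 1.9.0) and named X-like from at least 3 markers. The naming thresholds and the rule for mixed cells were set after the cluster lists had been seen. No doublet caller was run, and 118 cells carried at least 3 markers of another class. A class entered with at least 5 cells. Sums of the other set were fitted with edgeR 4.0.16 (quasi-likelihood, R 4.3.3, TMM, filterByExpr, Benjamini-Hochberg threshold 0.05) with the experiment as a block, because the labels number the experiments. Deviations of classes from the same experiment correlated at r = 0.15 to 0.58 in each of the 5 pairs of classes fitted. DESeq2 1.42.0 was an alternative. The number of mice is not given, so p-values rest on the spread between experiments, which may be technical. edgeR estimates that spread in part from all genes together. Against mature cells, with 3 experiments, the p-values follow a normal distribution of log2 difference over SE. A gene's own spread between experiments hardly enters them. The step was tested on simulated data: with 1963 genes for astrocyte-like against precursor-like cells, 96% of log2 changes of 2 and 27% of changes of 1 were recovered, and with 1829 genes for astrocyte-like against mature cells 82% and 11%. The simulation gave every gene the same dispersion and held no effect of experiment, so these rates are not those of the real fits. Astrocyte-like against stem cell-like cells could not be tested, with 1 experiment. Intervals are exact at 95%, cover counting error only, and a 0 is read against 3 counts.

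Members and lists were chosen with earlier results of these data known. Named genes were up to 3 per list, pair and direction with the largest change among those called, and the 6 most like each paralog. The saposin and carrier list is not reported here against microglia-like cells.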

Additional observations from a re-analysis of the deposited data

Results flagged for a closer look

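In 8 of 24 groups of 5 experiments tested, 1 experiment stood apart from the others by more than Dixon's 95% critical value, where chance gives about 1 in 20. For 5 of them the other experiments were at 0. Gpr37 in precursor-like cells was 3.37 CPM and in 1.56% of thinned cells in experiment 1. In microglia-like cells it was 4.31 CPM and in 1.49% of cells in experiment 1, and in neuroblast-like cells it was in 3.03% of cells in experiment 4. Each rests on 1 or 2 counts or cells.

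Psap stood apart in 3 groups. In astrocyte-like cells it was 1652 CPM in experiment 2, the highest of 5. In microglia-like cells it was 2939 CPM in experiment 4, from 7 cells. In neuroblast-like cells it was in 11.1% of cells in experiment 1, from 9 cells, the lowest of 5.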

How the results depend on the processing

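No direction of a member reversed in any alternative that gave a value. Without the replicate block, Psap between astrocyte-like and mature cells had a log2 difference of 0.84 and lost its call, as it did with no filter (1.11), with at least 2000 transcripts per cell (0.75) and with 1 experiment left out (0.72 to 1.08). The block changed no other call of a member. Gpr37 against precursor-like or microglia-like cells gave no value where it did not pass the filter, as without experiment 1.

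For the numbers of genes called, all counts means that cells were clustered anew on the same counts that were then tested. Genes called between astrocyte-like and precursor-like cells were 1683 with no filter and 1452 with all counts (807 as reported). Against mature cells they were 1356 with all counts and 576 to 1057 with 1 experiment left out (900). Against microglia-like cells they were 2678 with DESeq2, 2976 with no filter and 2065 with all counts (1219). Between precursor-like and microglia-like cells (929) they were 2781 with DESeq2, 3557 with no filter, 2869 with all counts, 1581 with a second seed, 1519 with at least 2000 transcripts, 1632 and 2427 at resolutions 0.6 and 1.5, and 583 to 1610 with 1 experiment left out. Between precursor-like and mature cells (496) they were 860, 957, 1064, 868, 888 and 924 with DESeq2, no filter, all counts, at least 2000 transcripts and the 2 resolutions, and 372 to 924 with 1 experiment left out. Without a scaling factor the split changed from 533 higher and 396 lower to 630 and 346 between precursor-like and microglia-like cells, and from 272 and 224 to 375 and 205 between precursor-like and mature cells.

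The mean Gpr37 level in precursor-like cells, 0.675 CPM as reported, was 5.47 CPM with all counts and cells clustered anew on them. It was 2.13 CPM with all counts in the reported classes. The level was 11.2 and 9.57 CPM with the other seeds, 11.4 and 13.03 with at least 500 and 2000 transcripts, and 3.59 on recovered identifiers. Psap in mature cells was 941 and 945 CPM with at least 500 and 2000 transcripts. Shares of cells moved with depth. Thinned to 2000, not thinned, and with at least 2 transcripts required, Gpr37 was in 26.3%, 41.6% and 2.96% of astrocyte-like and 96.8%, 100% and 47.6% of mature cells, and Gpr37l1 in 97.2%, 96.2% and 77.6% of astrocyte-like and 94.98%, 95.6% and 38.4% of precursor-like cells. Thinned to 2000 and not thinned, Gpr37l1 was in 8.21% and 9.39% of mature cells, both paralogs in 25.4% and 41.2% of astrocyte-like and 7.14% and 9.39% of mature cells. Not thinned, Gpr37 was in 1.11% and both in 1.11% of precursor-like cells, Gpr37l1 in 13.7% and both in 0.149% of microglia-like cells. Of the 6 genes most like Gpr37, 3 were shared with a pseudocount of 1, and of those most like Gpr37l1, 3 with at least 10 cells per class.

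The all-counts values of the members in the reported classes were added after seeing the data. With 5 to 49 mature cells per experiment, the mature levels are the least precise. Other causes were not tested.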
